A study of Mus musculus with 11 samples.

Results

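Adipokine, lipid uptake and fat synthesis genes were followed across all 11 tissue regions of a spatial profile of periostin-lineage cells in the mouse mammary gland. The 10 genes were chosen by name, as Adipoq, Retn, Lep, Fabp4, Cd36, Lpl, Scd1, Fasn, Pparg and Car3, and each has 1 of the 19965 endogenous probes in the deposited table. All 10 probes were found, and all 10 passed the filter on low counts.

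White adipocytes store triglyceride in a single large lipid droplet and fill most of the mammary fat pad around the ducts. Lipoprotein lipase (Lpl) frees fatty acids from circulating lipoproteins, the scavenger receptor Cd36 helps them across the membrane, and the binding protein Fabp4 carries them inside the cell. Fatty acid synthase (Fasn) builds palmitate from acetyl and malonyl units, and stearoyl-CoA desaturase (Scd1) puts a double bond into saturated fatty acids. Pparg is the nuclear receptor that drives adipocyte differentiation, Car3 is a carbonic anhydrase abundant in adipocytes and in slow skeletal muscle, and adiponectin (Adipoq), resistin (Retn) and leptin (Lep) are hormones that adipocytes secrete. Cd36, Fabp4 and Lpl are also made by other cells, among them capillary endothelium and macrophages.

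The mice were naive periostin lineage-tracing animals, in which ZsGreen marks cells that make or once made periostin. Mammary glands of 3 mice were fixed in paraformaldehyde and frozen, sections were hybridised with whole-transcriptome probes, and only the ZsGreen-positive area of each region was collected. The 6 Pdpn-adjacent regions (2, 3, 4, 7, 8 and 11) lay near podoplanin-stained lymphatic vessels, and the 5 SMA-adjacent regions (1, 5, 6, 9 and 10) near ducts and blood vessels stained for smooth muscle actin. Age, strain, sex and the alleles of the reporter are not given in the sources used here. Which mouse a region came from is not in the labels. With more regions than mice in each group, some regions come from the same animal, which can make every p-value over regions below too small. Where a mouse gave regions of both groups, leaving the mouse out can instead make p-values too large. A collected area pools the RNA of all cells and parts of cells in it, so fewer cells of a type and less RNA per cell cannot be told apart.

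The start of a gene is where its transcription is switched on, so the promoters of a hormone detected in nearly every region (Adipoq), of a hormone near background (Lep) and of the synthase (Fasn) are shown for comparison. RefSeq promoter windows on GRCm38.p6 were matched for 6 of the 10 genes, and the 250 bases before the start are printed 5′ to 3′ in the direction of the gene. Capitals mark matches on either strand to any of these motifs. The TATA box was searched as TATAAA and in the variant form TATAAG. The other motifs were the box written CCAAT, the palindrome TTGCGCAA bound by C/EBP factors and the nuclear receptor motif written AGGTCA.
Adipoq, chr16:23146286-23146535, plus strand: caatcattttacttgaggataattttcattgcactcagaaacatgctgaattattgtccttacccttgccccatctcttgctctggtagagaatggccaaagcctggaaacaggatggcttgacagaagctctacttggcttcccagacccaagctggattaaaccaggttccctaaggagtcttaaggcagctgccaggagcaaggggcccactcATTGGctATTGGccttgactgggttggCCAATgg
Lep, chr6:29059971-29060220, plus strand: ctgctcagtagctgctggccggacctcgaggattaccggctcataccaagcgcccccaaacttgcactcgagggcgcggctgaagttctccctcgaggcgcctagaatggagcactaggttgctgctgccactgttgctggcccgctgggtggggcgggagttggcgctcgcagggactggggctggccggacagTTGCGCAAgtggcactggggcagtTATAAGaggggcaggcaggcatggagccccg
Fasn, chr11:120824548-120824797, minus strand: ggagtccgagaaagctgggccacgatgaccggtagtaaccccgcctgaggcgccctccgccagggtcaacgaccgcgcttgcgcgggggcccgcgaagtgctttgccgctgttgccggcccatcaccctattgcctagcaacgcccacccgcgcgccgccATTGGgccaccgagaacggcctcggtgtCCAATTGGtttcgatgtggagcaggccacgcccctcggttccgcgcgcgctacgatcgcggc
The Adipoq window held 3 CCAAT boxes, at bases -34 to -30, -27 to -23 and -7 to -3 counted back from the start, and CCAAT occurs in 33.9% of 32851 windows of this length. The Fasn window also held 3, of which the pair at -62 to -58 and -59 to -55 overlap on opposite strands. The Lep window held TTGCGCAA at -55 to -48, found in 0.164% of windows, and TATAAG at -31 to -26, found in 6.65%. Neither AGGTCA nor TATAAA, the latter found in 12.4% of windows, was in the 3 printed. These matches describe the letters only.

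Depth differed between regions. Total counts were 760761 to 3086323 in SMA-adjacent and 22757 to 2271664 in Pdpn-adjacent regions, and 3 regions held fewer than 100000, all Pdpn-adjacent (22757 in region 2, 81760 in region 3 and 30316 in region 11). The lowest value in the table is 1, and 90.0% of probes stood at it in region 2 and 77.6% in region 11. Levels below are counts divided by the geometric mean of the 210 negative-control probes of the same region, called times background, and a probe was above the floor when it exceeded the negative probes' mean by 2 SDs on the log2 scale. Acta2 transcript followed the SMA label (12.9 to 87.5 against 0.952 to 10.0 times background), while Pdpn was above the floor in no region of either group (1.56 to 1.95 against 0.375 to 1.79). Postn was above it in 2 of 5 SMA-adjacent and 2 of 6 Pdpn-adjacent regions (1.84 to 5.13 against 0.889 to 4.09).

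Adipocyte transcripts were among the highest counts in both groups. Fabp4 had the highest count of all endogenous probes in region 4 and region 5, and in the 8 regions above 100000 counts Fabp4 ranked between 1 and 6 and Car3 between 3 and 12. Of the 10 genes, 6 to 8 were among the 100 highest probes in each of those 8 regions. Such ranks reflect how well each probe binds as well as the number of transcripts. Together the 10 probes took 2.12% of counts in region 7 (exact 95% binomial interval 2.06 to 2.18) and 2.05% in region 10 (2.03 to 2.08), but 0.0527% in region 2 (0.0272 to 0.0921) and 0.171% in region 3 (0.144 to 0.202). These intervals cover counting error only. In region 2, 8 of the 10 probes and 90.0% of all probes stood at the lowest value in the table, 1. Its share and interval are largely set by that value and do not measure how far these transcripts were lower there. Other white adipocyte genes stood high in the same regions: adipsin (Cfd), a secreted complement protease, was at 59.7 to 246 times background in the 8 deeper regions, and Cidec, which enlarges lipid droplets, at 13.4 to 37.0.

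**Figure D1:**
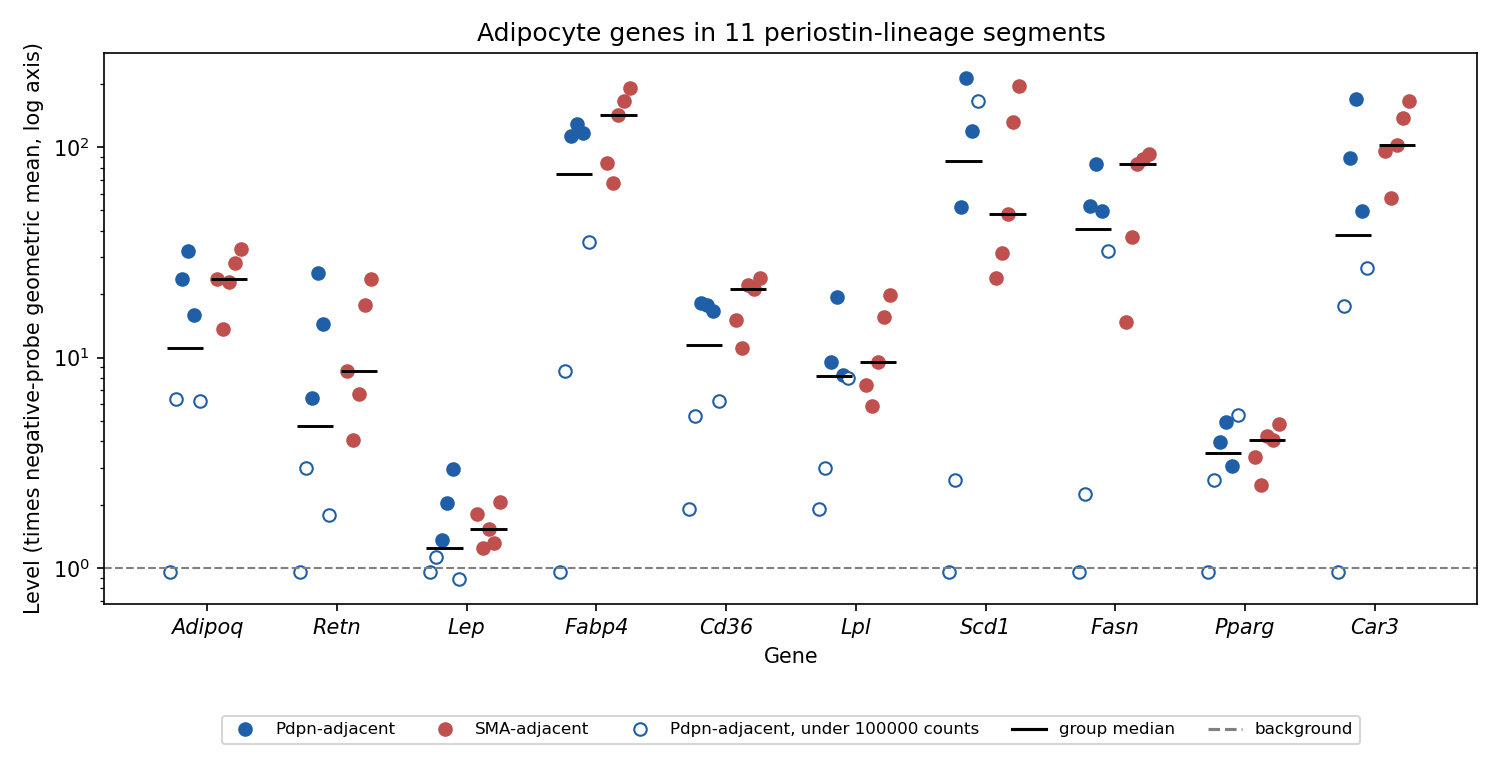
Level of each of the 10 genes in every region, as times the negative-probe geometric mean on a log axis; blue points are Pdpn-adjacent and red points SMA-adjacent regions, open points are regions under 100000 counts, and bars are group medians. Every gene's groups overlap, and the open points of region 2 lie at 0.952 to 1.90.

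In region 2, 8 of the 10 genes stood at a count of 1 and the other two, Cd36 and Lpl, at a count of 2. In region 3, 4 of the 10 were above the floor (Adipoq, Fabp4, Cd36 and Car3), beside 2.77% of all probes. In region 11 all but Lep were, beside 22.4% of all probes. The floor in region 11 was only 1.98 counts, and Retn passed it with 2. In each of the 8 deeper regions at least 9 were above the floor, beside 5.73% to 19.2% of all probes. The values of regions 2, 3 and 11 therefore rest on few counts: 12, 140 and 325 over the 10 probes together.

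Among the secreted hormones, Adipoq encodes adiponectin (probe on GRCm38.p6 at chromosome 16, 23157301 to 23157336). Its level was 23.7, 13.6, 22.8, 28.3 and 32.9 times background in SMA-adjacent regions 1, 5, 6, 9 and 10, and in Pdpn-adjacent regions the lowest was 0.952, the median 11.1 and the highest 32.0. Pdpn-adjacent region 7 stood beside the highest SMA-adjacent region, and regions 2, 3 and 11 were the lowest of all. Retn encodes resistin (chromosome 8, 3656927 to 3656964), with levels of 8.62, 4.08, 6.72, 17.8 and 23.6 times background in the same SMA-adjacent regions and 0.952, 4.72 and 25.3 (lowest, median and highest) in Pdpn-adjacent ones. Regions 7, 8, 9 and 10 were higher for Retn than the other 7 regions, and they include both labels. Lep, the leptin gene (chromosome 6, 29068965 to 29069014), stayed near background, at 1.81, 1.24, 1.52, 1.31 and 2.05 times in SMA-adjacent regions and 0.889, 1.24 and 2.94 in Pdpn-adjacent ones. Only Pdpn-adjacent region 8 passed the floor for Lep, by 23 counts against 22.6, so leptin transcript was not detectable at this depth in the other 10 regions.

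Of the uptake genes, Fabp4 (chromosome 3, 10206007 to 10206056) was at 83.7, 67.3, 142, 166 and 191 times background in SMA-adjacent regions 1, 5, 6, 9 and 10. Its lowest, median and highest values in Pdpn-adjacent regions were 0.952, 74.4 and 129, and the deeper Pdpn-adjacent regions 4, 7 and 8 stood close together at 113, 129 and 117. All of these lay inside the SMA-adjacent range. Cd36 (chromosome 5, 17788260 to 17788295) was at 15.0, 11.1, 22.1, 21.2 and 23.8 times background in SMA-adjacent regions and at 1.90, 11.4 and 18.2 in Pdpn-adjacent ones. Regions 4, 7 and 8 again fell within a narrow band for this fatty acid receptor, between 16.6 and 18.2. Lpl (chromosome 8, 68892697 to 68892732) was at 7.43, 5.87, 9.49, 15.6 and 19.7 times background against 1.90, 8.15 and 19.5, and region 7 was about level with region 10 for this lipase.

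Scd1 spread most of the 10 over the SMA-adjacent regions. The desaturase Scd1 (chromosome 19, 44403256 to 44403293) was at 23.8, 31.5, 48.0, 132 and 196 times background in SMA-adjacent regions 1, 5, 6, 9 and 10, and its lowest, median and highest Pdpn-adjacent values were 0.952, 86.0 and 213. In library-scaled counts (CPM, counts divided by a TMM-scaled library size) its SD was 82.9% of its mean over the SMA-adjacent regions, followed by Retn at 63.7%, Fasn at 53.2%, Lpl at 45.9%, Fabp4 at 37.4%, Car3 at 32.6%, Cd36 at 26.0%, Adipoq at 24.9%, Pparg at 20.2% and Lep at 17.3%. In region 11 Scd1 had the highest count of all probes, 187, at 166 times background. Fasn (chromosome 11, 120820262 to 120820297) was at 14.8, 37.3, 83.5, 88.2 and 92.4 times background in SMA-adjacent regions and at 0.952, 40.8 and 83.1 in Pdpn-adjacent ones. Region 1 stood apart below the other SMA-adjacent regions for this synthase. Acly, which supplies the acetyl units for fatty acid synthesis, was also lowest in region 1 among the 8 deeper regions, at 3.10 times background against 6.18 to 13.4 in the others.

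The regulator Pparg (chromosome 6, 115439906 to 115439947) was low and even, at 3.36, 2.49, 4.23, 4.07 and 4.84 times background in SMA-adjacent and 0.952, 3.52 and 5.34 in Pdpn-adjacent regions. Its highest value came from region 11, where it rests on 6 counts. Car3 (chromosome 3, 14864361 to 14864396) was at 95.7, 57.2, 103, 138 and 165 times background in SMA-adjacent regions and at 0.952, 38.2 and 170.1 in Pdpn-adjacent ones. Region 7 was highest and region 8, at 49.7, lowest of the 8 deeper regions for this enzyme. Fast skeletal muscle genes stood high in region 3 (mean level of 10 genes 85.4 times background) and region 7 (40.2) and at 1.02 to 11.6 in the other regions. Slow muscle fibres also make Car3. The mean of 7 genes listed for slow muscle, though Myh2 among them is a fast type IIa myosin, was 3.43 times background in region 3. It was 0.889 to 1.34 in the other 10, region 7 included. In region 3 only 1 of the 7 was above the floor. Another 2 stood at a count of 1, among them Myh7 at 0.375 times background, so this mean does not show slow fibres there. The part of muscle RNA in the Car3 values was not tested.

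**Figure D2:**
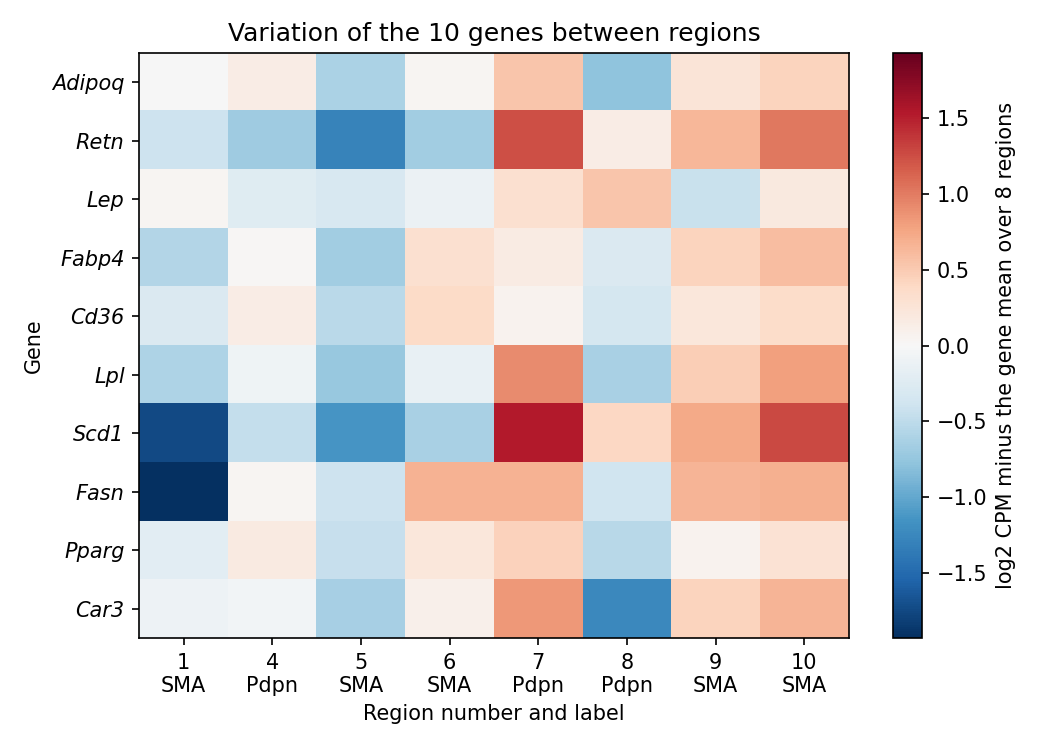
Log2 CPM of the 10 genes (rows) in the 8 regions above 100000 counts (columns, with region number and label), each gene centred on its mean over those regions. Scd1 and Retn are highest in regions 7 and 10, and Fasn and Scd1 are lowest in region 1.

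Counts of the genes were next set against Adipoq within a region, which takes out library size but not probe binding, so ratios are compared between regions only. The ratio of Scd1 to Adipoq counts was 1.01 in region 1, 2.20 in region 4, 2.32 in region 5 and 2.11 in region 6. It was 6.65 in region 7, 7.57 in region 8, 4.67 in region 9 and 5.95 in region 10. Regions 7 to 10 thus lay above regions 1, 4, 5 and 6, and each set holds both labels. The exact 95% counting intervals of the sets did not overlap (highest bound 2.46 in region 5, lowest 4.47 in region 9). Within a set some did not overlap either (0.891 to 1.14 in region 1 and 1.98 to 2.25 in region 6, 4.47 to 4.88 in region 9 and 5.61 to 6.32 in region 10). Counting error is all they cover, so they do not single out this division. The ratio of Retn to Adipoq divided the regions the same way, at 0.364, 0.273, 0.300 and 0.295 in regions 1, 4, 5 and 6 and at 0.791, 0.911, 0.628 and 0.718 in regions 7 to 10. Of the labels, the region number alone goes with this division, the sources used here do not say what it stands for, and no test was made because the pattern was seen in the data. Fasn to Adipoq did not divide so: it was 0.624 in region 1 and between 2.22 and 3.67 in the other 7. The ratios of Car3 and Pparg to Adipoq varied least, from 3.14 to 5.31 and from 0.142 to 0.194. In region 11 the ratio of Scd1 to Adipoq was 26.7 on 187 and 7 counts (12.7 to 67.4).

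**Figure D3:**
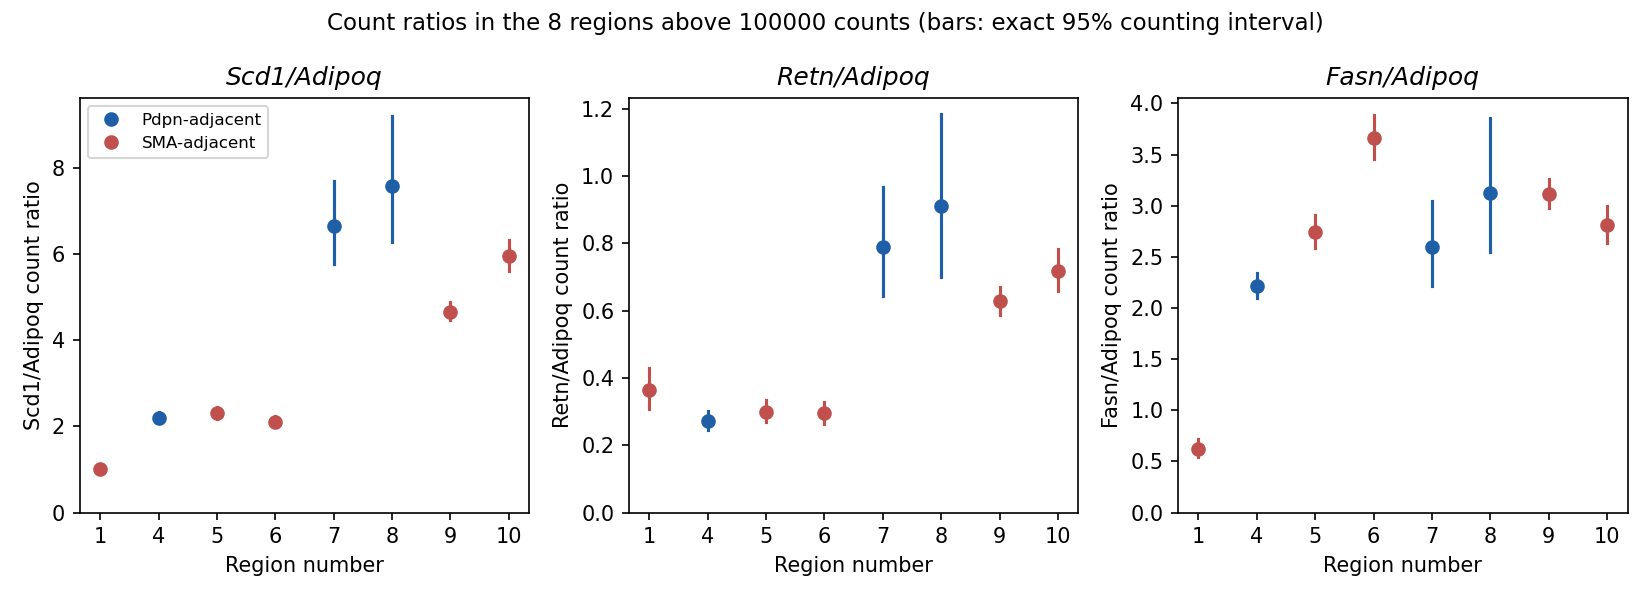
Ratio of Scd1, Retn and Fasn counts to Adipoq counts in the 8 regions above 100000 counts, with exact 95% counting intervals as bars; blue is Pdpn-adjacent and red SMA-adjacent. For Scd1 and Retn, regions 7 to 10 lie above regions 1, 4, 5 and 6, and for Fasn region 1 lies below the rest.

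Across the 8 deeper regions the genes other than Lep varied together. Pearson's r of log2 CPM ran from 0.451 to 0.977 over their 36 pairs, with a median of 0.729, and was highest for Adipoq with Car3 (0.977) and for Cd36 with Fabp4 (0.942). Scd1 was closest to Retn (0.893) with 0.484 for Scd1 and Adipoq. The 9 pairs with Lep ran from -0.173 to 0.474. These values describe 8 points that share library, depth and background, and carry no test. Of 2381 probes above the floor in at least 4 of the 8 regions, the 8 closest to the mean profile of the 10 genes were Pank3, Bcap31, Ormdl3, Pcx, Tmem59, Cdo1, Tspo and Glul (r of 0.970 to 0.988). Pank3 makes coenzyme A, pyruvate carboxylase (Pcx) makes oxaloacetate, Cdo1 oxidises cysteine and Glul makes glutamine. Pcx ran from 127 CPM in region 1 to 531 CPM in region 7. The mean profile contains the 10 genes' own values, and Lpl was closer to it than all of these but Pank3, at 0.980.

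The comparison the study was built for, Pdpn-adjacent against SMA-adjacent regions, separated none of the 10 genes. With edgeR's quasi-likelihood test over 19935 probes and Benjamini-Hochberg adjustment, 0 of 10 passed in either direction (0.0100% of all probes did, 2 in number), and 0 of 10 had an unadjusted p under 0.05 in either direction (6.03% of all probes, 2.84% higher and 3.19% lower in Pdpn-adjacent regions). The exact permutation test gave 0 of 10 an unadjusted p under 0.05 (8.34% of all probes) and an adjusted p under 0.05 to none of the 10 or of the other probes (0.00%). In no gene did the groups fail to overlap in CPM (0.391% of all probes had every Pdpn-adjacent region below every SMA-adjacent one, and 0.446% the reverse). Log2 fold changes, Pdpn-adjacent minus SMA-adjacent, were below 0 for 7 of the 10 (48.8% of all probes), with a median of -0.44 beside 0.0056 over all probes tested. Without regions 2, 3 and 11 the median was 0.04 beside 0.0013 over all probes, and 5 of 10 were below 0. In that fit 0 of 10 passed (1 of all 19965 probes did) and 0 of 10 had an unadjusted edgeR p under 0.05 (779 of all probes). With regions of a shared animal among them, p-values may be understated here, or overstated where an animal gave regions of both groups.

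The size of each difference was poorly fixed. Fabp4 averaged 2096 ± 1771 CPM (SD, n = 6) in Pdpn-adjacent and 3975 ± 1487 CPM (SD, n = 5) in SMA-adjacent regions. Its log2 fold change was -0.90 ± 1.36 SE, with a 95% interval from -3.69 to 1.89 and an edgeR adjusted p of 1.00. In the 3 deeper Pdpn-adjacent regions it averaged 3627 ± 548 CPM (SD, n = 3), and without regions 2, 3 and 11 its log2 fold change was -0.13 ± 1.07 SE. For Adipoq the Pdpn-adjacent mean was 450 ± 377 CPM (SD, n = 6) and the SMA-adjacent mean 740 ± 184 CPM (SD, n = 5). This gave -0.61 ± 0.63 SE on the log2 scale, with an edgeR adjusted p of 1.00 and an exact permutation p of 0.113, or 0.670 adjusted over all probes. The 3 deeper Pdpn-adjacent regions averaged 738 ± 308 CPM (SD, n = 3) for Adipoq. Cd36 had the smallest p of the 10 by either test, with 348 ± 217 CPM (SD, n = 6) in Pdpn-adjacent and 572 ± 149 CPM (SD, n = 5) in SMA-adjacent regions. Its log2 fold change was -0.60 ± 0.53 SE, with an adjusted p of 0.986 by edgeR and an exact permutation p of 0.0866, or 0.634 adjusted over all probes. Scd1 had a positive value in the fit, 0.23 ± 1.37 SE on the log2 scale, from 3031 ± 3003 CPM (SD, n = 6) in Pdpn-adjacent and 2592 ± 2149 CPM (SD, n = 5) in SMA-adjacent regions, with an interval from -2.59 to 3.04 that takes in both directions. The narrowest intervals were those of Lep (log2 fold change 0.14, interval -0.24 to 0.52) and Pparg (0.026, interval -0.49 to 0.54). These were the genes nearest background, so their narrow intervals do not show well-fixed differences in transcript. After background subtraction in the 8 deeper regions Lep was at 0.74 (interval -0.63 to 2.11) and Pparg at 0.13 (-0.64 to 0.89). Fasn, Car3, Lpl and Retn had log2 fold changes of -0.70, -0.82, -0.27 and -0.26 (edgeR adjusted p = 1.00 each). A p above the threshold does not show that the groups were alike. Regions of a shared animal can make each p too small, or too large where the animal gave both groups.

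**Figure D4:**
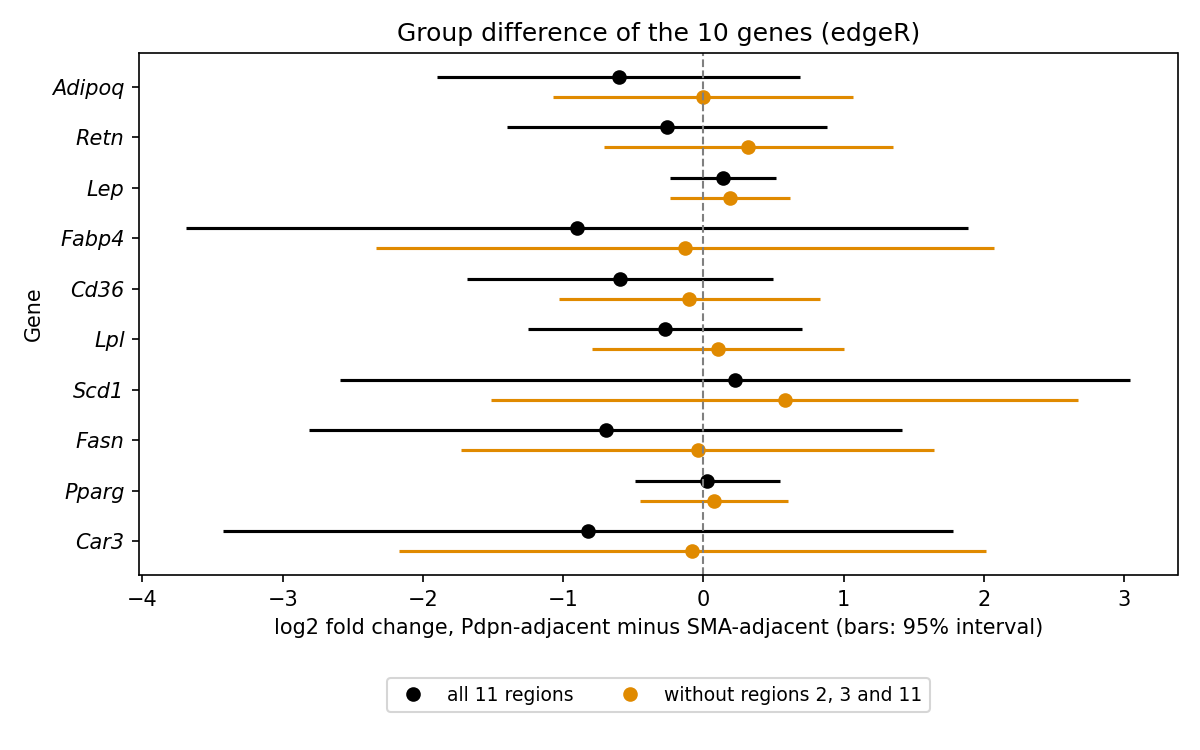
Log2 fold change of each gene, Pdpn-adjacent minus SMA-adjacent, with 95% intervals, from all 11 regions (black) and without regions 2, 3 and 11 (orange). Every interval crosses 0, and all 7 genes below 0 move toward or past it when the shallow regions are left out.

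Other genes of the same pathways showed no call either. Among all probes tested 0.0100% passed, 6.03% had an unadjusted edgeR p under 0.05 and 8.34% an unadjusted permutation p under 0.05. Of 18 genes of fatty acid and triglyceride synthesis 0 passed and 0 had an unadjusted p under 0.05 (median log2 fold change -0.079), with Elovl6 and Elovl5, which lengthen fatty acids, at 0.47 ± 0.33 SE and 0.60 ± 0.43 SE and Thrsp, a lipogenic nuclear protein, at -0.56 ± 0.64 SE. Of 12 lipid uptake and transport genes 0 passed and 2 had an unadjusted p under 0.05, both with positive values (median -0.085). These were Vldlr, a lipoprotein receptor (0.43 ± 0.18 SE, edgeR adjusted p = 0.761), and Fabp5, the epidermal fatty acid binding protein (1.68 ± 0.70 SE, edgeR adjusted p = 0.761), followed by the fatty acid transporter Slc27a4 (0.67 ± 0.34 SE). Without region 11 the log2 fold change of Fabp5 was -0.011 (edgeR adjusted p = 1.00) that of Slc27a4 0.29 and that of Elovl5 0.0012. Of 14 adipokine and receptor genes 0 passed and 1 had an unadjusted p under 0.05, Retnla, a resistin-like protein (-0.89 ± 0.40 SE, edgeR adjusted p = 0.778), followed by Cap1 (-0.51 ± 0.25 SE) and Nampt, an enzyme of NAD synthesis that is also secreted (-0.39 ± 0.21 SE). The list's median was -0.17. For 8 adipogenic transcription factors 0 passed and 0 had such a p (median -0.16), with Cebpd, Zfp423 and Klf15 at -0.35, -0.17 and -0.15. Of 10 lipid droplet and lipolysis genes 0 passed and 0 had such a p (median -0.37), with the lipase Pnpla2 at -0.84 ± 0.64 SE, the droplet coat protein Plin1 at -0.63 ± 0.52 SE and Cidea at -0.43 ± 0.38 SE. By the exact permutation test the lists gave 0 unadjusted p under 0.05, except 3 of 14 among the adipokines and receptors (Retnla and Nampt with negative values and Sfrp5, named after its value was seen, with a positive one). Here too, regions of a shared animal can make each p too small, or too large where the animal gave both groups.

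Marker lists of other cell types were read beside these values. Over all probes 6.03% had an unadjusted edgeR p under 0.05 (2.84% higher and 3.19% lower in Pdpn-adjacent regions), and 8.34% a permutation p under 0.05. The mean level of 11 blood endothelial genes was 0.952 to 3.24 times background in Pdpn-adjacent and 1.72 to 3.89 in SMA-adjacent regions. Of the 11, 4 had an unadjusted edgeR p under 0.05 and 6 a permutation p under 0.05, all with negative values. The mean level of 9 macrophage genes was 0.952 to 3.07 against 2.03 to 3.34 (3 of 9 by edgeR and 4 of 9 by permutation, all negative). Both lists were highest in region 10 (3.89 and 3.34 times background), where Cd36, Fabp4 and Lpl were also highest (23.8, 191 and 19.7). Adipoq (32.9), Fasn (92.4) and the mean of the 10 genes (75.2) were highest in region 10 too. In region 1 the endothelial list was at 3.59 and the macrophage list at 2.74, with Cd36, Fabp4 and Lpl at 15.0, 83.7 and 7.43. In region 7 the lists were at 1.96 and 1.41, with the same 3 genes at 17.8, 129 and 19.5. Of 10 fast muscle genes 8 had an unadjusted edgeR p under 0.05 with positive values, as did 9 of 10 luminal epithelial genes, but by the exact permutation test 0 of 10 in each list did. The luminal list was at 2.70 and 3.04 times background in regions 4 and 8 and at 0.978 to 1.76 in the other 9. Of 7 smooth muscle genes 6 had an unadjusted edgeR p under 0.05 with negative values, and 5 had one by permutation. No gene of any list passed edgeR's adjusted threshold. The 9 fibroblast genes were at 0.952 to 7.81 against 4.74 to 14.2 times background. Of the 9, 4 had an unadjusted edgeR p under 0.05 and 5 a permutation p under 0.05, all with negative values. The 8 brown fat genes were at 0.952 to 2.14 against 1.18 to 3.71, with Ucp1 at 0.889 to 3.30 against 1.37 to 5.02. Of the 8, 4 were above the floor in regions 4, 6 and 9, 3 in region 5 and 0 to 2 in the others. Ucp1 passed the floor in regions 4, 5, 6 and 9 only, with 253, 379, 323 and 306 counts against 179, 249, 143 and 176. The part of brown fat in the levels of the 10 genes was not tested. The mean level of the 10 genes themselves was 1.14 to 69.6 times background in Pdpn-adjacent and 23.2 to 75.2 in SMA-adjacent regions. The share of all counts above background was 6.00% in region 2, 18.8% in region 3 and 21.6% in region 5, and 39.8%, 41.6% and 41.4% in regions 9, 10 and 8. The parts of endothelial, macrophage and background signal in the levels of Cd36, Fabp4 and Lpl were not tested.

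**Figure D5:**
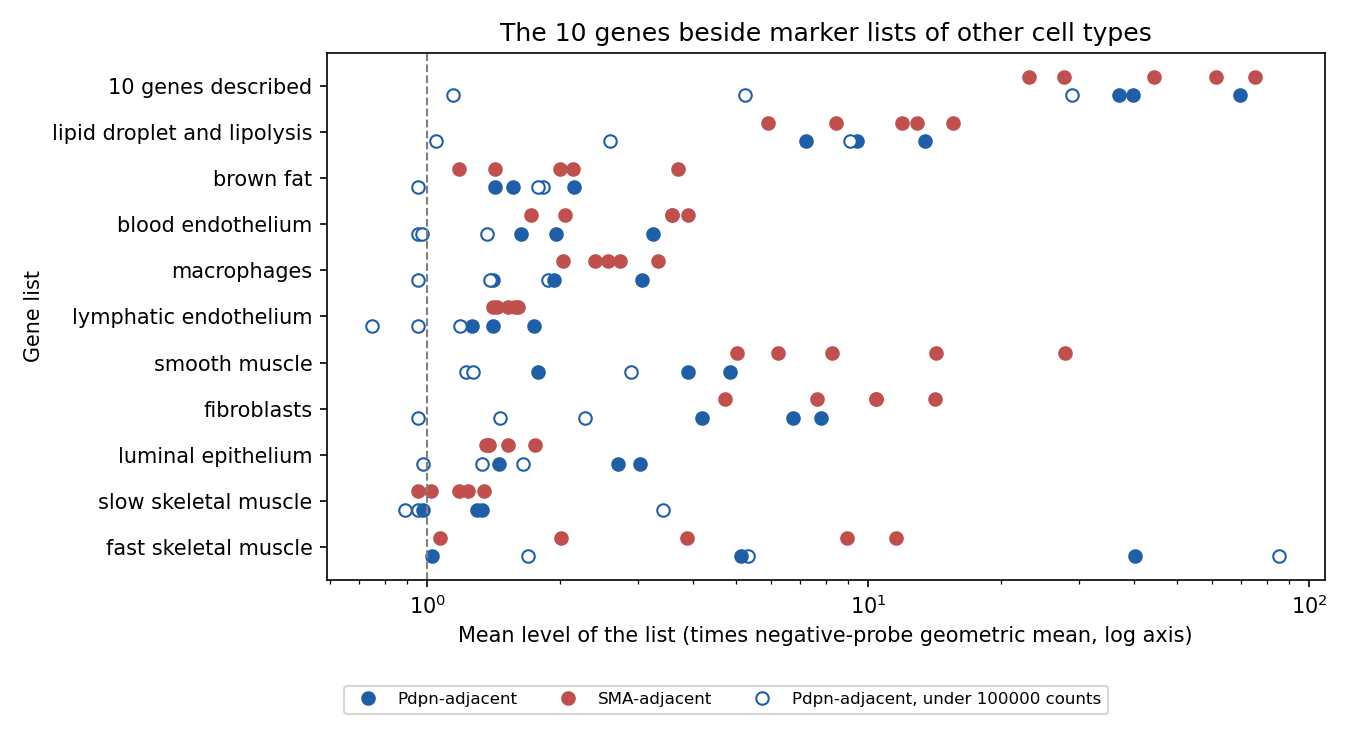
Mean level of the 10 genes and of marker lists of other cell types in every region, as times background on a log axis; blue is Pdpn-adjacent, red SMA-adjacent, and open points are regions under 100000 counts. In the filled points the 10 genes lie at 23.2 to 75.2 times background and the blood endothelial list at 1.63 to 3.89.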

How the data were processed

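GeoMx digital spatial profiling releases barcoded probes from a lit area of tissue by ultraviolet light and counts them by sequencing. The authors deposited 1 table of raw counts per probe and region, judged unnormalized from its whole numbers and unequal totals. The file headers place the probes on GRCm38.p6, and the steps from reads to counts are not given in the sources used here. The 210 negative-control probes (0.610% to 0.979% of counts) set the background and entered neither library sizes nor tests.

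In R 4.3.3, edgeR 4.0.16 (filterByExpr, TMM factors, quasi-likelihood test, two-sided, Benjamini-Hochberg over all 19935 probes kept, threshold 0.05) compared the 6 Pdpn-adjacent with the 5 SMA-adjacent regions. SE and 95% interval are those implied by the test. An exact two-sided permutation test of log2 CPM over 462 splits (smallest p 0.00433) was run for every probe. Alternatives used DESeq2 1.42.0, limma 3.58.1, other scaling, no filter, background subtraction, a covariate, or fewer regions. No 2 regions of a group held identical counts. The labels tie no region to a mouse, so no mouse term could be fitted.

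Named genes are the 10 genes, the 3 of smallest p in each pathway list, and the 8 probes most like the 10 genes' mean profile; other names were added after their values were seen. The genes and lists were chosen with earlier results of these data known.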

Additional observations from a re-analysis of the deposited data

How the results depend on the processing

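None of the 10 genes passed the threshold under any of the 22 alternatives run, and the smallest adjusted p was 0.469 (Lep, limma-voom). Limma with array weights gave 5 of the 10 (Adipoq, Fabp4, Cd36, Fasn and Car3) an unadjusted p under 0.05 and 0 adjusted. All 5 had negative values, and 1449 of 19935 probes had such a p in that fit. DESeq2 gave no adjusted p for Lep. No paired analysis was possible because the labels tie no region to a mouse.

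The median log2 fold change of the 10 genes, -0.44, became 0.022 with each region's above-background share as a covariate, 0.076 after background subtraction in the 8 deeper regions and 0.036 without the 3 shallow regions. It was -1.30 with limma-voom and -1.44 with array weights, which moved the median of all probes to 0.14 and 0.11, and -0.83 to -0.27 when 1 region at a time was left out. The cause was not tested.

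Single genes changed sign as follows. Adipoq became 0.026 after background subtraction. Retn became 0.58 with the covariate, 0.37 after background subtraction, 0.32 without the shallow regions and 0.091 without SMA-adjacent region 10. Lpl became 0.24, 0.15 and 0.10 under the first 3 of these. Lep became -0.012 without Pdpn-adjacent region 8. Scd1 became -1.84 with limma-voom, -1.90 with array weights, and -0.013, -0.20 and -0.12 without regions 1, 7 and 11. Pparg became -0.092 with negative-probe scaling, -0.050 without regions 3 and 7, and -0.020, -0.052, -0.074, -0.099 and -0.028 without regions 1, 4, 5, 7 and 11. When 1 region at a time was left out, Retn ran down to -0.91 (without region 7), Lep up to 0.42 (without region 4), Scd1 up to 0.74 (without region 10) and Pparg up to 0.16 (without region 8). Fabp4, Cd36, Fasn and Car3 stayed below 0 in all 22, but their highest values were only -0.12, -0.094, -0.041 and -0.051. Without the shallow regions they were at -0.13 ± 1.07 SE, -0.10 ± 0.45 SE, -0.041 ± 0.82 SE and -0.079 ± 1.02 SE. The 22 share most of their regions and are not independent of each other. The cause was not tested.

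Over all probes, 2 were called. The count was 17 with DESeq2, 1 with negative-probe scaling, 1 with array weights, 37 with the covariate, 1 without the shallow regions, 14 without regions 3 and 7 and 13 without regions 4 and 8. It was 0 with limma-voom (3251 at an unadjusted p under 0.05) and 0 after background subtraction (352). Leaving out 1 region gave 1 to 53, the highest without region 5, with 13 without region 7 and 1 without region 2, 3, 9, 10 or 11.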

Other observations

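Region 11, a Pdpn-adjacent region of 30316 counts, held Fabp5, Elovl5 and Slc27a4 at levels that the other regions did not show. Scd1 was its top probe with 187 counts, at 166 times background, but was higher in regions 7 and 10 (213 and 196). Fabp5 ranked 6 among all probes of region 11 at 71.2 times background, on 80 counts, and was at 0.375 to 6.39 times in the other 10 regions. Elovl5 was at 24.9 times background in region 11, on 28 counts, and at 1.02 to 4.50 elsewhere. Slc27a4 was at 18.7 there, on 21 counts, and at 0.952 to 2.33 elsewhere. Adipoq and Retn were at 6.23 and 1.78 times background there. These genes were named for their fit results or, in region 11, after their values were seen.

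Fabp3, the fatty acid binding protein of heart and skeletal muscle, was at 8.25 times background in region 3, where fast muscle genes were highest, and at 0.889 to 2.18 in the other 10 regions.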
